A study of Mus musculus with 5 samples.

Results

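Basophils, mast cells and eosinophils are granulocytes of type 2 immunity, and 10 genes that mark them or that they secrete are described here in CD11b+ cells sorted from tumour-cell plugs. Taken by name were Mcpt8, Prss34, Fcer1a, Ms4a2 and Cpa3 for basophils and mast cells, and Siglecf, Epx and Prg2 for eosinophils. The cytokines Il4 and Il13 made up the rest of the list. These 10 genes were chosen with earlier results of these data known. Every probe set annotated to one of them was taken. That gave 10 probe sets for 9 of the 10 genes, out of 45037 probe sets and 18193 named genes in all. Ms4a2 had 2 probe sets, the other 8 genes had 1 each, 0 were shared with another gene symbol, and the expression of Prss34, which no probe set named, was not analysed here.

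Basophils and mast cells carry the high-affinity receptor for IgE. Its alpha chain (Fcer1a) binds IgE, and its beta chain (Ms4a2) and gamma chain (Fcer1g) carry the signal that releases granules and cytokines. Eosinophils store cationic proteins such as eosinophil peroxidase (Epx) and major basic protein (Prg2), and carry the sialic acid-binding lectin Siglec-F, which alveolar macrophages of the mouse also have. All of these cells, together with Th2 cells and innate lymphoid cells, can secrete interleukin 4 and interleukin 13, which act on macrophages through the interleukin 4 receptor alpha chain.

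The arrays came from adult Balb/c SCID mice, aged 7 to 12 weeks, that all carried a transgenic T-cell receptor specific for an idiotype, a part of the antibody made by the mouse myeloma MOPC315. SCID mice make hardly any T and B cells of their own. The mice received Matrigel, a gelled basement membrane extract, under the skin, and it contained either MOPC315 (3 arrays, labelled tumoricidal macrophages, biological replicates 1 to 3) or an antigen-loss form of MOPC315 (2 arrays, labelled control macrophages, replicates 1 and 2). Plug cells were sorted for CD11b on day 8, and the labels do not say how many mice went into an array. CD11b is not restricted to macrophages: neutrophils, basophils, eosinophils and some natural killer cells carry it too. The comparison asks how plug cells differ with and without the antigen that the transgenic T cells recognise.

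The deposited values are linear probe set signals in arbitrary units, with no detection call. Array medians ran from 15.4 to 22.6, so each array was scaled to the same median, about 18. A floor was set at the 25th percentile of all scaled signals, 4.79, because signals below it have no reliable order. Itgam, the gene for CD11b, had scaled signals between 417 and 1135. Of the macrophage and monocyte markers, 9 of 9 measured were above the array median on all 5 arrays. These values do not show how far the sort left out other cells, whose markers are given below. Spike-in control probe sets placed the arrays in 2 sets, A (tumoricidal replicates 1 and 2, control replicate 1) and B (tumoricidal replicate 3, control replicate 2). The deposited signal of the spike-in AFFX-BioC-3_at was between 653 and 731 in set A and between 186 and 199 in set B. Each set holds both groups, so differences within each set are given beside the overall ones.

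GATA factors are transcription factors of the basophil, mast cell and eosinophil lineages, and the sequence upstream of the member genes was therefore searched on both strands for the hexamers AGATAA and AGATAG, along with the hexamers TGATAA and TGATAG. The windows are the 250 bases before each RefSeq start site on build GRCm38.p6, which is C57BL/6J and not Balb/c sequence; 9 of the 10 genes were in the table, with 10 windows, since Il4 has 2 start sites. Of these windows 6 held at least 1 match, against 26.5% of all 32851 windows in the table. The matches are shown in the direction in which the hexamer reads, with the hexamer in capitals:
Prss34, 31 to 26 bases before the start, chr17:25298351-25298380, plus strand: cctgtggaagaaAGATAAatgggaccctgg
Fcer1a, 92 to 87 bases before the start, chr1:173227304-173227333, plus strand: ggctttctccagAGATAAtaatagggttgt
Ms4a2, 224 to 219 bases before the start, chr19:11623926-11623955, plus strand: taggaaatgagaAGATAAaagagagcagaa
Ms4a2, 37 to 32 bases before the start, chr19:11623739-11623768, plus strand: aacctacttgtcAGATAAgtctccaggctg
Ms4a2, 11 to 6 bases before the start, chr19:11623720-11623742, minus strand: ggttccgcatgaAGATAAtcatt
Cpa3, 46 to 41 bases before the start, chr3:20242210-20242239, minus strand: agctgttcgtcgAGATAAaagctgaggtat
Il4, 80 to 75 bases before one of its start sites, chr11:53617401-53617430, minus strand: gatgtgacaggcTGATAGtgcattttctct
Il13, 81 to 76 bases before the start, chr11:53634766-53634795, minus strand: gatgtggttttcAGATAAtgcccaacaaag

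Fcer1a, Ms4a2, Cpa3, Prss34 and Il13 shared the hexamer AGATAA, and Ms4a2 held it 3 times. The windows of Mcpt8, Siglecf, Epx and the other Il4 start site held none of the 4 hexamers. That Il4 window instead held the members' 1 match to TTC and GAA with 4 bases between them, the spacing that STAT6 binds; STAT6 transmits the interleukin 4 signal, and 5.85% of all windows hold such a match. It is shown with the match in capitals, at chr11:53618811-53618844, minus strand:
Il4: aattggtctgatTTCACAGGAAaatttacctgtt

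Siglecf, one of the genes with the clearest group difference below, held no match to the hexamers or to the STAT6 spacing in the 250 bases before its start at chr7:43351091-43351340, plus strand:
Siglecf: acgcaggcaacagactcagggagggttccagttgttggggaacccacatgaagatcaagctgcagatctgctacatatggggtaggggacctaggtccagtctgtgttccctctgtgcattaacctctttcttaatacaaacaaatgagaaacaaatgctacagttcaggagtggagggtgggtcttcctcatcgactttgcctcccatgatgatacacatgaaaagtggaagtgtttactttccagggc

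Mcpt8, Siglecf, Ms4a2 and Il4 were higher on all 3 tumoricidal arrays than on both control arrays, while Fcer1a, Cpa3, Epx, Prg2 and Il13 overlapped between the groups. None of the 9 genes passed limma's adjusted p under 0.05 over all 41053 probe sets tested, a threshold that 0.0527% of genes passed as higher and 0.0117% as lower. At an unadjusted limma p under 0.05, 4 of 9 were higher and 0 lower, against 6.12% and 2.79% of the genes tested. Overlap was judged after signals were raised to the floor. Groups that did not overlap, with tumoricidal higher, were found for 4 of 9 members and 17% of the 17074 genes tested. In the same way, 0 members and 6.51% of genes were lower. The members were chosen with earlier results of these data known, so these shares describe the list and do not test it. With 3 against 2 arrays there are 10 ways to split them, so an exact permutation test could not go below p = 0.1 for any 1 gene. In bulk samples, fewer cells of a type and less RNA per cell cannot be told apart.

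Most member signals lay near the floor. Of the 50 values, 10 probe sets on 5 arrays, 19 were at or under the floor and 12 were above the median of their array. As a yardstick for such signals, 27 genes of other organs (such as liver, pancreas, retina and testis) had 90% of their values under 24.7; the highest, 369, belonged to Cela1, a pancreatic elastase. Mcpt8 and Siglecf exceeded 24.7 on all 3 tumoricidal arrays, Il4 and Cpa3 on 1 tumoricidal array each, and 0 members on a control array. Single values close to those of Siglecf also occurred among the genes of other organs. Tnni3 reached 39.3 on tumoricidal replicate 3, Pomc 33.1 on the same array and Prm1 33.1 on tumoricidal replicate 2. The plot of signals by array shows this split between the genes.

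**Figure D1:**
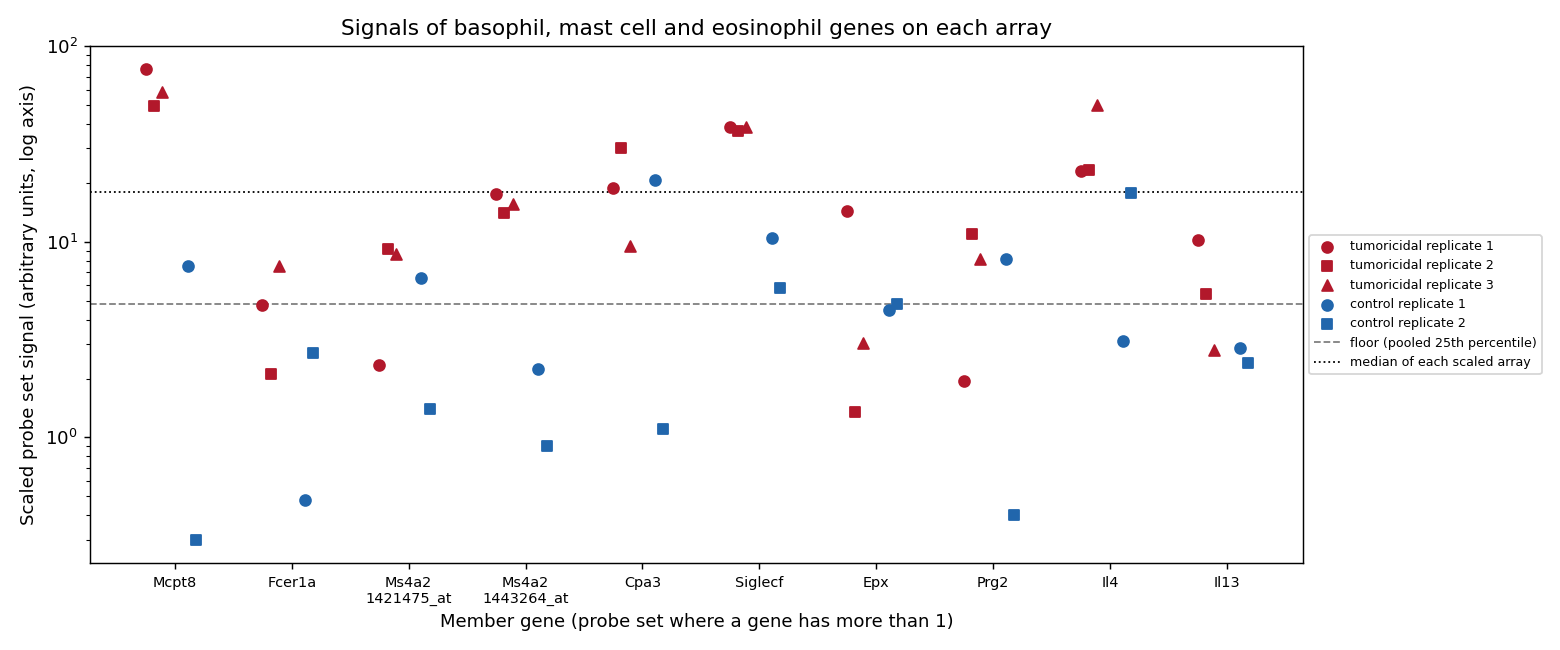
Scaled signal (arbitrary units, log axis) of each member probe set on the 3 tumoricidal arrays (red) and 2 control arrays (blue), with marker shapes for the replicate number, the floor of 4.79 as a dashed line and the array medians of about 18 as a dotted line. Mcpt8 and Siglecf sit above the dotted line on every tumoricidal array and below it on both control arrays, while Fcer1a, Epx, Prg2 and Il13 scatter around the floor in both groups.

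Mcpt8, a serine protease of basophil granules in the mouse, gave the largest difference of the 9 genes. On the tumoricidal arrays its scaled signals were 76.1, 49.4 and 58.3. Control replicate 1 gave 7.49 and control replicate 2 gave 0.3, which lies under the floor. The lowest tumoricidal array was 6.60 times the highest control array, so the groups were far from overlapping. The means were 61.3 ± 13.6 (SD, n = 3) and 3.89 ± 5.08 (SD, n = 2). The log2 difference was 3.33 (SE 0.33, 95% interval 2.52 to 4.14), with 1 of the 2 control values raised to the floor. Limma's p for Mcpt8 was 7.26e-05 before and 0.0608 after adjustment, and 0.141% of the genes tested had a difference at least as high. Within set A the difference was 3.03 and within set B 3.61, and with the sets as a block 3.28 (limma adjusted p = 0.156). The adjusted p of Mcpt8 was 0.00347 where only probe sets with a mean above the median were tested, and it was not under 0.05 in any of the other 15 alternatives that gave a p, where it reached up to 0.908.

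Siglecf was even across the tumoricidal arrays and lower on both control arrays. Its signals were 38.5, 37.0 and 38.5 on the tumoricidal arrays, 38.0 ± 0.89 (SD, n = 3), and 10.5 and 5.80 on the control arrays, 8.16 ± 3.33 (SD, n = 2). None of the 5 values was under the floor, which held for no other member. The log2 difference was 2.28 (SE 0.32, 95% interval 1.49 to 3.08), about 4.86-fold (limma adjusted p = 0.141). It was 1.84 within set A and 2.73 within set B. The adjusted p of Siglecf was under 0.05 in 2 of the 16 alternatives with a p: 0.0181 where only probe sets with a mean above the median were tested, and 0.0441 with the floor at the 40th percentile.

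The granule proteins of eosinophils did not show the same split as Siglecf. Epx gave 14.3, 1.35 and 3.04 on the tumoricidal arrays and 4.46 and 4.8 on the control arrays. Only tumoricidal replicate 1 stood clearly above the floor, and the other tumoricidal values were under it. The log2 difference was 0.53 (95% interval -0.81 to 1.86, limma adjusted p = 0.853), and it was -0.0012 without tumoricidal replicate 1, 0.79 within set A and -0.0023 within set B. Prg2 gave 1.93, 11 and 8.18 against 8.20 and 0.4, so each group had 1 value under the floor and the rest near it. Its log2 difference was 0.27 (95% interval -0.84 to 1.38, limma adjusted p = 0.89), with -0.18 within set A and 0.77 within set B. These intervals include 0 but also differences of over 1 on the log2 scale.

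The IgE receptor gave a mixed reading. Fcer1a, the chain that binds IgE, had signals of 4.78, 2.12 and 7.48 on the tumoricidal arrays and 0.478 and 2.70 on the control arrays. Of these 5 values, 4 were under the floor, and the log2 difference was 0.21 (95% interval -0.52 to 0.95, limma adjusted p = 0.867). It was 0 within set A, where all 3 values were under the floor, and 0.64 within set B. For the beta chain Ms4a2 the probe set 1443264_at gave 17.5, 14.0 and 15.6 against 2.23 and 0.9. Both control arrays were under the floor. The lowest tumoricidal array was 6.26 times the highest control array, a ratio that rests on a control signal under the floor. The log2 difference was 1.70 (SE 0.24, 95% interval 1.12 to 2.29), about 3.26-fold (limma adjusted p = 0.141). The difference depends on the floor to which both control values were raised, so its SE and interval take no spread from the control arrays. The same holds for the intervals of Fcer1a and Il13. With the floor at the 40th percentile the Ms4a2 difference was 0.49 (limma adjusted p = 0.462). Within set A it was 1.71 and within set B 1.70.

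The 2 Ms4a2 probe sets disagreed. The probe set 1421475_at gave 2.34, 9.14 and 8.65 on the tumoricidal arrays and 6.53 and 1.40 on the control arrays, so the groups overlapped and tumoricidal replicate 1 was under the floor. Its log2 difference was 0.37 (SE 0.38, limma adjusted p = 0.853). None of the 10 values of these probe sets was above the median of its array. The mean over both probe sets gave Ms4a2 a difference of 1.04.

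Cpa3, the carboxypeptidase of mast cell and basophil granules, varied within both groups. It gave 18.8, 30.2 and 9.47 on the tumoricidal arrays and 20.7 and 1.1 on the control arrays. Control replicate 1 was higher than tumoricidal replicates 1 and 3, so the groups overlapped. The log2 difference was 0.82 (SE 0.76, 95% interval -1.07 to 2.70, limma adjusted p = 0.847). It changed sign with control replicate 2 left out (-0.24) and reached 1.87 with control replicate 1 left out, and was 0.20 within set A and 0.98 within set B.

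**Figure D2:**
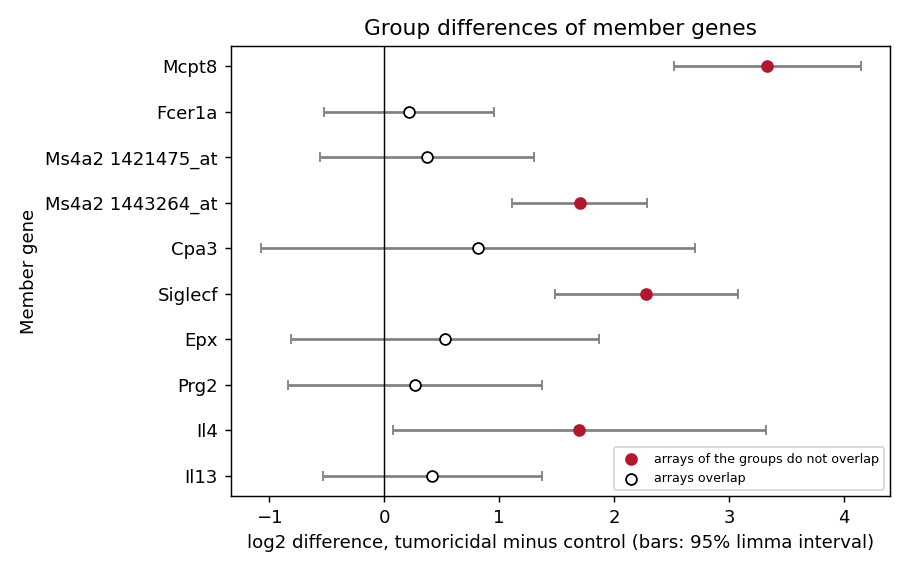
Log2 difference (tumoricidal minus control) of each member probe set with its 95% interval from limma; filled points are probe sets whose arrays do not overlap between the groups. The filled points are Mcpt8 at 3.33, Siglecf at 2.28, 1 of 2 Ms4a2 probe sets at 1.70 and Il4 at 1.70, and the intervals of the open points all include 0. For the filled Ms4a2 point, Fcer1a and Il13 both control values sat at the floor, so these intervals take no spread from the control arrays.

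Of the cytokines, Il4 was higher on the tumoricidal arrays, with wide scatter. Its signals were 23.0, 23.2 and 50.1 on the tumoricidal arrays and 3.11 and 17.7 on the control arrays. Control replicate 1 was under the floor, whereas control replicate 2 lay close to the lowest tumoricidal array, with a ratio of 1.30 between them. The log2 difference was 1.70 (SE 0.66, 95% interval 0.07 to 3.32, limma adjusted p = 0.6), with 1 of the 2 control values raised to the floor. It was 0.76 without control replicate 1 and 2.64 without control replicate 2, and 2.27 within set A and 1.5 within set B. Il13, its neighbour on chromosome 11, gave 10.2, 5.39 and 2.81 against 2.87 and 2.40, with both control arrays and 1 tumoricidal array under the floor. The log2 difference of Il13 was 0.42 (95% interval -0.54 to 1.37, limma adjusted p = 0.844). It was 0.08 without tumoricidal replicate 1, 0.63 within set A and 0 within set B, where both values were under the floor.

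T cells can also make interleukin 4, and their markers were uneven among the tumoricidal arrays. The summed signal of 8 measured T-cell markers was 213, 1405 and 131 on the tumoricidal arrays and 201 and 100.2 on the control arrays, in the order of replicates. Cd3e, a chain of the T-cell receptor complex, stood at 196 in tumoricidal replicate 2 and between 8.75 and 9.58 in the other two. Il4 was highest in tumoricidal replicate 3, where the summed T-cell markers were lowest among the tumoricidal arrays. Their part in the Il4 signal was not tested. Gata3, the transcription factor of Th2 cells and type 2 innate lymphoid cells, was under the floor on all 5 arrays. The highest value, 3.08, was in tumoricidal replicate 2, where the T-cell markers summed to 1405. Whether this probe set can detect Gata3 in such cells was not tested.

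Taken as a list, the 9 measured members had a median log2 difference of 0.82, against 0.13 over all genes tested. That median, the value of Cpa3, was 0.53 without control replicate 2, 1.26 without tumoricidal replicate 3 and with the replicate block, 0.54 with the spike-in sets as a block, 0.46 with log2(signal + 16) and 1.78 with the floor at the 10th percentile. All 9 differences were positive, against 63% of all genes tested. Since the members were chosen with earlier results of these data known, these contrasts describe the list and do not test it. The direction did not hold for Cpa3, Epx and Prg2 under every alternative. The summed signal of the 9 genes was 205, 174 and 193 on the tumoricidal arrays and 60.0 and 36.1 on the control arrays, and Mcpt8, Siglecf and Il4 made up most of the tumoricidal sums.

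Further genes of basophils and mast cells did not share the size of the Mcpt8 difference. Of 8 other basophil genes, 7 had a probe set and 6 were tested. None passed, 2 were higher without overlap (17% of all genes tested), and the median difference was 0.62. The 2 were Hdc, the enzyme that makes histamine, and Gata2. Hdc gave 377, 403 and 617 against 189 and 147 (log2 difference 1.45, limma adjusted p = 0.306). On the same control arrays Mcpt8 gave 7.49 and 0.3, and which cells gave the Hdc signal was not tested. Gata2, a transcription factor of basophil and mast cell development, gave 29.6, 35.2 and 32.3 against 19.0 and 21.0 (log2 difference 0.69, limma adjusted p = 0.535). Cd200r3, a receptor of basophils and mast cells, was at or close to the floor on every array, with 6.10 as its highest value. Of 14 other mast cell genes, 12 had a probe set and 10 were tested, with 0 past the threshold and a median of 0.09. Kit, the receptor for stem cell factor, was the 1 gene of the 10 higher without overlap, against 17% of all genes tested. Its signals were 33.5, 23.7 and 22.7 against 19.0 and 10.9 (log2 difference 0.86, limma adjusted p = 0.634). The mast cell proteases overlapped between the groups once raised to the floor. Cma1 was between 12.0 and 35.8, Tpsab1 between 7.60 and 21.6 and Tpsb2 between 2.15 and 9.12. Tpsg1 was between 3.82 and 11.65 and Mcpt2 between 1.155 and 12.8, and Mcpt4 was under the floor on all 5 arrays. Mcpt1 gave 0.61, 1.64 and 1.29 against 3.58 and 7.40, with only the last value above the floor.

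Of 10 other eosinophil genes, 5 had a probe set and 4 were tested, with 0 past the threshold and a median of -0.34. Of the 4, 1 was higher without overlap, against 17% of all genes tested. Ccr3, the eotaxin receptor, was between 1.99 and 12.4 and Il5ra, the interleukin 5 receptor, between 1.32 and 9.32, and both overlapped between the groups. Gata1, a transcription factor of the eosinophil lineage, was between 1.75 and 22.5 and overlapped too. Prg3, a homologue of major basic protein, was under the floor on all 5 arrays. Alox15, a lipoxygenase of eosinophils and of some macrophages, was higher without overlap, with 70.9, 42.2 and 28.2 against 18.4 and 13.2 (log2 difference 1.49, limma adjusted p = 0.467). Ccr3, Il5ra, Gata1, Prg3, Cd200r3, Cma1, Tpsab1, Tpsb2, Mcpt4, Gata3, Fcer1g, Il4ra, Jak1, Cish, Arg1, Retnla, Chil3 and Mrc1 were picked after their values were seen. The same holds for Tpsg1, Mcpt1, Mcpt2, Xbp1, S100a8, S100a9, Mpo, Elane, Tnni3, Pomc and Prm1.

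**Figure D3:**
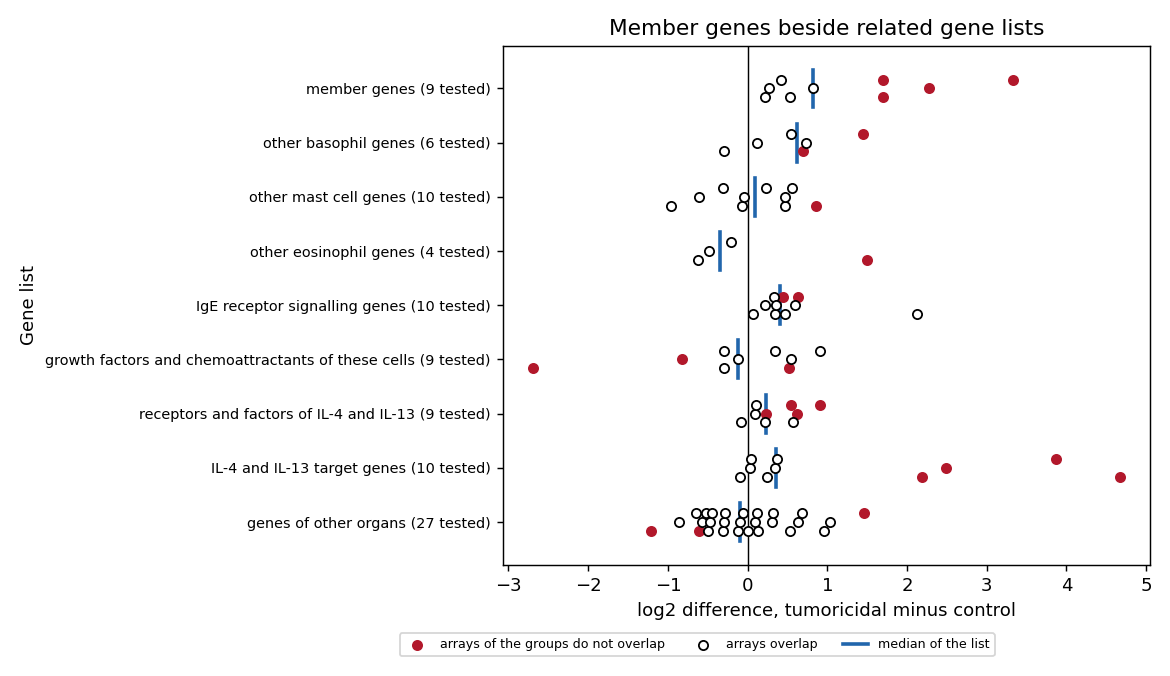
Log2 difference (tumoricidal minus control) of each tested gene in the member list and in 8 other gene lists; filled points are genes whose arrays do not overlap between the groups and blue bars are list medians. The member median is 0.82, the medians of other basophil, mast cell and eosinophil genes are 0.62, 0.09 and -0.34, and the genes of other organs centre on -0.09.

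Among genes that transmit the IgE receptor signal, which macrophages also use for other receptors, 10 of 11 were measured, 0 passed and 2 were higher without overlap, a share near the 17% over all genes tested. They were the kinases Btk (log2 difference 0.63) and Fyn (0.45). Fcer1g, the gamma chain shared with IgG receptors, was abundant in both groups, between 3393 and 5753 on the tumoricidal arrays and 2369 and 3868 on the control arrays. Of 12 growth factors and chemoattractants of these cells, 11 had a probe set and 9 were tested. None passed, and 1 was higher and 2 lower without overlap, against 17% and 6.51% of all genes tested. The lower ones were Tslp, an epithelial cytokine that acts on basophils, with 7.93, 5.58 and 6.55 against 28.7 and 64.2 (log2 difference -2.70, limma adjusted p = 0.16), and the eosinophil attractant Ccl24, with 283, 299 and 204 against 395 and 530 (log2 difference -0.82, limma adjusted p = 0.574). Il18 was the higher one, by 0.52.

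Receptors and signalling factors for interleukins 4 and 13 were measured for 10 of 12 genes and tested for 9. None passed, and 4 of the 9 were higher without overlap (17% of all genes tested), among them the kinase Jak1 by 0.24. Of the 4, the common beta chain Csf2rb is the receptor subunit for interleukin 3, interleukin 5 and GM-CSF, not for interleukins 4 and 13. Csf2rb differed by 0.91, Il13ra1 by 0.62 and the kinase Tyk2 by 0.55. Il4ra overlapped between the groups, with 477, 598 and 1135 against 608 and 676.

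Of 10 target genes of interleukins 4 and 13, 0 passed, 4 were higher without overlap (17% of genes tested), and the median was 0.36. The 4 were Ccl17 (4.67) and Ccl22 (2.49), which attract Th2 cells, Pdcd1lg2 (3.87), a ligand of the receptor PD-1, and Cish (2.19), an inhibitor of cytokine signalling. Their limma adjusted p was 0.115, 0.181, 0.066 and 0.172, in that order. Which signal lay behind these differences was not tested. Arg1, Retnla, Chil3 and Mrc1, which interleukin 4 induces in macrophages, differed by 0.04, 0.35, 0.37 and 0.05 and overlapped between the groups. The genes of the list thus fell into a set of 4 with differences over 2 and a set of 6 with differences from -0.09 to 0.37.

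Of the markers of other cells, 0 passed limma's adjusted threshold in each list; 17% of all genes tested were higher and 6.51% lower without overlap. Of 7 measured natural killer cell markers, 7 were higher without overlap, and their summed signal was 1181 to 3263 on the tumoricidal arrays and 245 to 575 on the control arrays. Of 9 measured neutrophil markers, 5 were higher without overlap, with sums of 9804 to 11250 and 4370 to 7245. S100a8 (3919 to 4788 and 1635 to 3004) and S100a9 (4803 to 5100 and 2098 to 3309) made up most of these sums. Mpo and Elane differed by -0.29 and -0.35 and overlapped between the groups. Of 9 measured plasma cell or myeloma markers, 5 were lower and 2 higher without overlap, with sums of 3783 to 6157 and 6441 to 6888. Xbp1, among the higher ones, gave 3098 to 3297 and 2456 to 2721, a large part of these sums. The largest differences of the list were those of Pou2af1 (log2 difference -3.24), Jchain (-2.80) and Tnfrsf17 (-2.65). For macrophages and monocytes, 2 of 9 were higher without overlap, a share near that over all genes, with sums of 24370 to 34230 and 23560 to 28550. For T cells, 4 of 8 were higher without overlap, and their sum was large in tumoricidal replicate 2 alone, as given above. The part of these cells in the member signals was not tested.

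**Figure D4:**
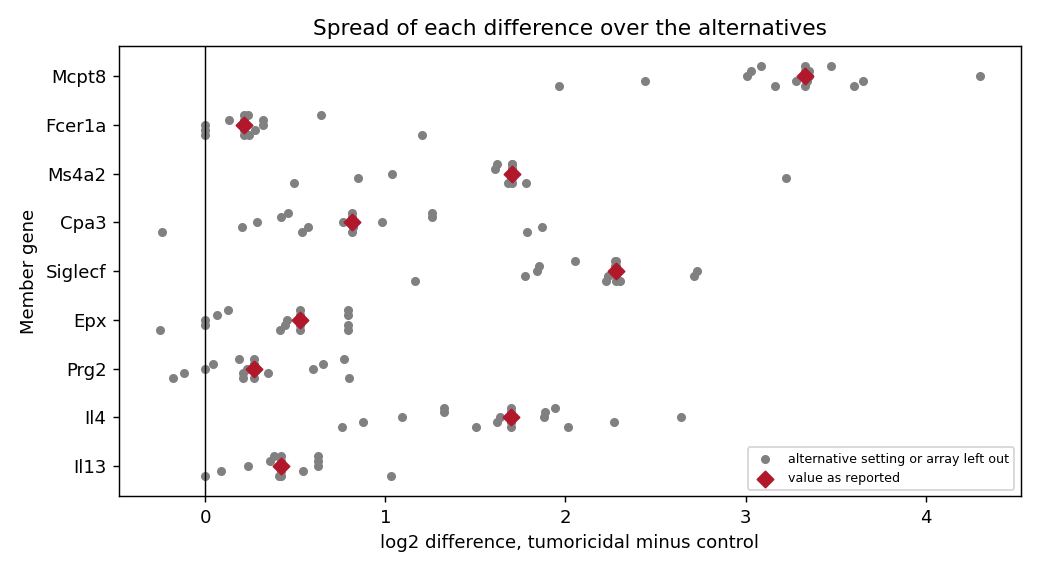
Log2 difference (tumoricidal minus control) of each member gene as reported (red diamond) and under each alternative processing setting, within each spike-in set and with each array left out (grey points). Mcpt8 stays between 1.97 and 4.30, Siglecf between 1.17 and 2.73, Ms4a2 between 0.49 and 3.22 and Il4 between 0.76 and 2.64, while Cpa3, Epx and Prg2 reach values below 0.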

How the data were processed

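Per the labels, CD11b+ cells were sorted with a FACSAria, total RNA was extracted with Trizol and biotinylated cRNA was made from 6 µg of it by the Affymetrix protocol. The authors deposited linear signal intensity per probe set for 5 arrays; how probes were summarised is not given in the sources used here. Their mean without the outer 2% at either end was 100.0 on every array, which is how globally scaled arrays look.

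Each array was scaled to a common median (medians differed by up to 1.47 times), 64 control probe sets were dropped, signals under 4.79 were raised to it and log2 was taken. Left out were 3984 probe sets that lay at the floor on each of the 5 arrays; limma compared 41053 without covariates (lmFit, eBayes, two-sided, Benjamini-Hochberg). The number of arrays limits the precision. The labels call the arrays biological replicates. The platform annotation named 34945 probe sets with 1 symbol, 932 with several and 9160 with none; a gene is its probe set with the highest mean. Member symbols matched RefSeq identifiers.

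The named-gene rule took all members and, per further list, up to 3 genes without overlap whose higher group lay above the array median. Members and lists were chosen with earlier results of these data known. The limma step was tested on simulated data. A further promoter motif was searched and is not reported here. Alternatives changed scaling, floor, filter, variance trend, blocks, probe set choice and arrays. The software was limma 3.58.1 under R 4.3.3, and matplotlib 3.10.9 under Python 3.11.15.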

Additional observations from a re-analysis of the deposited data

How the results depend on the processing

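Groups without overlap were found for 4 members, all higher, in every fit but 3: 3 where only probe sets above the median were tested, and 5 without tumoricidal replicate 3 or control replicate 1. Members past the adjusted threshold numbered 0, but 1 (Siglecf) with the floor at the 40th percentile and 2 (Mcpt8 and Siglecf) with only probe sets above the median. For probe sets in all, 14 higher and 7 lower became 0 and 0 with the floor at the 10th percentile, 41 higher with the 40th, 59 and 12 with log2(signal + 16), 168 and 25 above the median, 58 higher with a variance trend, and 41 lower when those at the floor on every array were kept. With the spike-in sets as a block they were 0 and 0 (unadjusted p under 0.05: 2631 and 1486), and 0 to 0 in both directions with any array left out. Genes of the further lists past the threshold went from 0 to 1 lower (Pou2af1) with the deposited scaling, quantile normalization, the 40th percentile floor, log2(signal + 16), only probe sets above the median and the trend; 2 were higher with log2(signal + 16), 6 above the median and 1 with the trend. Differences that changed sign were Epx (-0.25 with the floor at the 10th percentile, -0.0023 within set B), Prg2 (-0.18 within set A) and, over arrays left out, Epx (-0.0012 to 0.79), Prg2 (-0.12 to 0.66) and Cpa3 (-0.24 to 1.87). The cause was not tested. Fcer1a came to 0 within set A, with the replicate block and without tumoricidal replicate 3, and Il13 within set B.

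Deviations of same-numbered arrays from their group means correlated at 0.02 and -0.24. With 2 control arrays their deviations are equal and opposite, so this check cannot decide whether the replicate numbers pair the arrays. With the replicate block, limma called 0 probe sets higher and 0 lower (unadjusted p under 0.05: 1103 and 933), and Mcpt8 differed by 3.36 and Siglecf by 2.27. Scaling moves the balance of calls: at an unadjusted p under 0.05, 2021 probe sets were higher and 1259 lower, against 1172 and 2500 with the deposited scaling. Signals near the floor limit Fcer1a, Epx, Prg2 and Il13. No setting could be run for raw background correction, since the values start from summarised signals.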
